A study of Rattus norvegicus with 65 samples.

Results

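The receptors for prolactin and growth hormone and the proteins that carry and end their signal were followed through the rat hypothalamus after gastric bypass, food restriction and gut hormone treatment. The genes are Prlr, Ghr, Stat5a, Stat5b, Cish and Socs2. They were chosen by symbol, each symbol matched 1 gene, and the 6 genes are part of the 38513 genes in the count table.

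RNA from the hypothalamus of 65 male Wistar rats was sequenced, with 1 library per animal, to compare bariatric surgery with treatments that act on body weight. The rats were 9 to 10 weeks old at the start and were made obese with 6 weeks of high-fat diet before the interventions. The hypothalamus was taken 4 weeks after the intervention and after 10 h of fasting. The animals came from 2 periods of work, named batch A with 37 animals and batch B with 28.

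The RYGB group had Roux-en-Y gastric bypass, an operation that leads food past most of the stomach and the upper small intestine (14 animals, of which 11 belonged to batch A and 3 to batch B). The sham group had an operation without bypass (11 animals, 5 and 6). The BWM group had the sham operation and received restricted food with the aim that its body weight follow that of the RYGB group (7 animals, batch A). The lean group is not explained in the labels and was taken to be the animals given low-fat diet alone after that (6 animals, batch A). Liraglutide, an agonist of the receptor for glucagon-like peptide, was given under the skin at 0.4 mg/kg/day (5 animals, batch B). PYY3-36, a gut peptide that binds a neuropeptide Y receptor, was given by minipump at 0.1 mg/kg/day (4 animals, batch B). The PYY3-36 + liraglutide group received both agents (10 animals, 5 and 5), and the saline group received saline under the skin and by minipump (8 animals, 3 and 5). The BWM and lean groups stood in batch A alone, so they were compared with the sham animals of both batches through a term for batch, and within batch A.

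Summed over all genes, a library of batch A held 25912861 to 36539714 counts (median 29571483) and a library of batch B 20040821 to 35011015 (median 23385849). Levels are given as counts-per-million (CPM) scaled between libraries by TMM, edgeR's trimmed mean of M values. Differences between groups are log2 fold changes with their standard error (SE) from an edgeR model of all 65 libraries with terms for group and batch. A gene was called different at a Benjamini-Hochberg adjusted p under 0.05 over the 21871 genes that passed a filter on low counts, and all 6 genes passed it.

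Prolactin and growth hormone are pituitary hormones that reach the brain from the blood and act on class I cytokine receptors. The receptors have no enzyme of their own and work through the kinase JAK2, which phosphorylates STAT5A and STAT5B. These proteins then enter the nucleus and switch on target genes, among them Cish and Socs2, whose products dampen the same receptors. In the hypothalamus prolactin receptors are found on the dopamine neurons that hold prolactin secretion in check, and growth hormone receptors on neurons that regulate feeding and growth hormone release, while the choroid plexus is known as a site of many prolactin receptors.

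Prlr encodes the prolactin receptor (gene5559, chromosome 2, 60131410 to 60325686, plus strand, Rnor_6.0). It was the least abundant of the 6 genes, with a median of 0.222 CPM per kilobase of exon over 65 libraries, and its counts ran from 0 to 160 per library. In batch A the 11 RYGB libraries ran from 0.580 to 5.14 CPM with a median of 2.31 CPM. The 5 sham libraries had 0.818, 0.462, 0.385, 0.437 and 0.472 CPM. All 11 RYGB libraries lay above the median of the sham libraries, 9 of 11 lay above the highest sham library, and RYGB replicates 7 and 11 were the low ones. The 3 RYGB libraries of batch B had 1.18, 1.31 and 0.639 CPM. The 6 sham libraries of batch B ran from 0 to 1.55 CPM with a median of 0.434 CPM, and 2 of them, replicates 6 and 10, had no count of Prlr. Here the groups overlapped, since sham replicate 8 stood above each of the 3 RYGB libraries.

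In the other groups of batch A, Prlr ran from 0.227 to 2.66 CPM in 7 BWM libraries (median 1.41 CPM) and from 0.168 to 2.63 CPM in 6 lean libraries (median 0.845 CPM). The 3 saline libraries had 3.0015, 3.64 and 2.61 CPM, and the 5 PYY3-36 + liraglutide libraries had 0.604, 1.82, 3.68, 0.950 and 1.61 CPM. The saline libraries thus held the highest median of batch A, above that of the RYGB libraries, while the 5 sham libraries held the lowest. Among the animals of batch B, the 5 saline libraries had 0.226, 1.05, 0.508, 0.0887 and 0.618 CPM. The 4 PYY3-36 libraries had 1.03, 0.237, 0.574 and 1.04 CPM, the 5 liraglutide libraries 0.401, 0.289, 0.198, 0.593 and 2.60 CPM, and the 5 PYY3-36 + liraglutide libraries 1.03, 1.64, 0.916, 1.09 and 0.282 CPM. The saline libraries of batch B did not stand out, and the medians of batch B ran from 0.401 CPM in the liraglutide group to 1.18 CPM in the RYGB group with overlapping ranges.

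**Figure D1:**
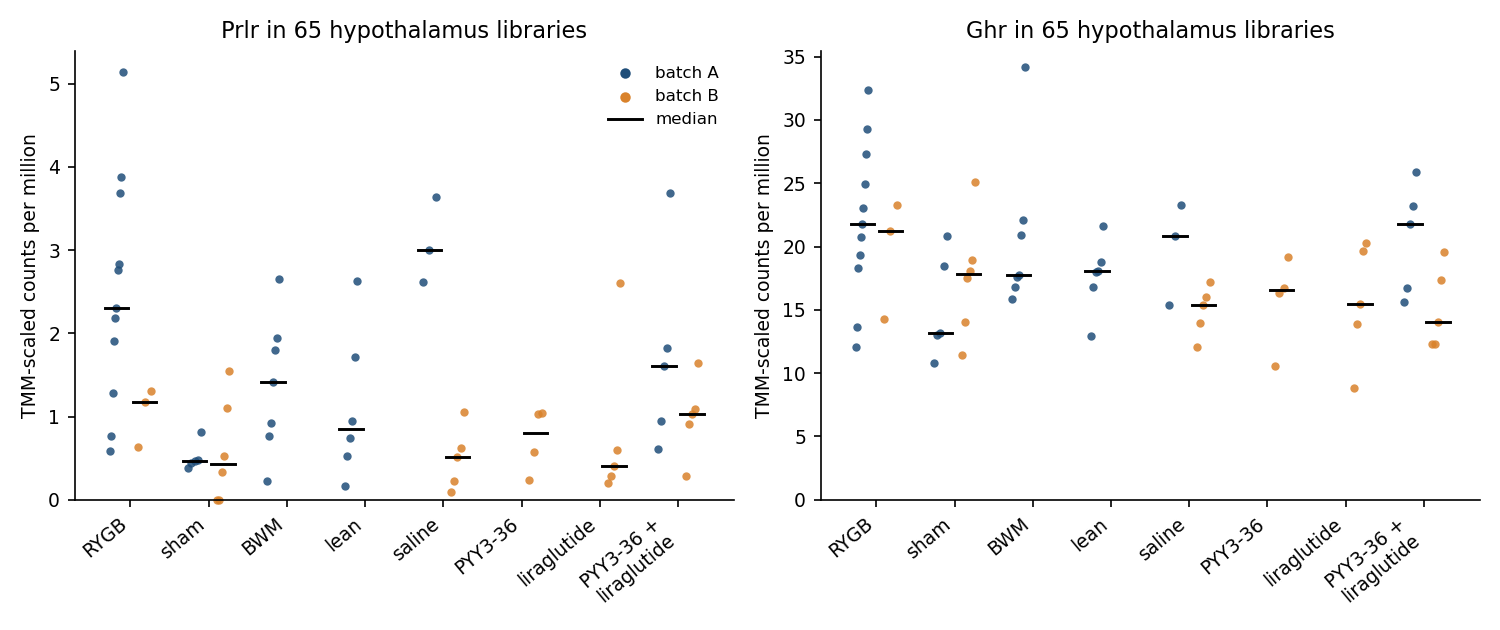
Levels of Prlr and Ghr (TMM-scaled CPM) in each of the 65 libraries, by group, with batch A in blue and batch B in orange and a bar at each median. Within batch A the median of Prlr was lowest in sham animals (0.462 CPM), and the highest single level was in an RYGB animal (5.14 CPM), while the ranges of Ghr overlapped between all groups.

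Between RYGB and sham animals, 3 of the 6 genes were called, all higher in RYGB animals. Over all genes tested 13% were called in this comparison and 6.52% were called higher. Prlr was 2.78-fold higher in RYGB animals (log2 fold change 1.475, SE 0.508, adjusted p 0.0439, 14 against 11 animals). Prlr was chosen with earlier results from these libraries known, so this is not independent evidence. Within batch A its log2 fold change was 2.26 (SE 0.644, adjusted p 0.0235, edgeR), and within batch B it was 0.807 (SE 0.759, adjusted p 0.573, edgeR). The difference between both batches was -1.45 (SE 0.998, p 0.151, adjusted p 0.651, edgeR).

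The call of Prlr depended on single libraries, as 15 of the 25 fits that each left out 1 RYGB or sham library gave an adjusted p over 0.05. Without RYGB replicate 1 the adjusted p was 0.0612, without replicate 4 it was 0.0527, without replicate 5 0.0510, without replicate 8 0.0569, without replicate 9 0.0714, without replicate 12 0.0644 and without replicate 13 0.0726. Without sham replicate 1 it was 0.0505, without replicate 2 0.0840, without replicate 3 0.0811, without replicate 4 0.0870, without replicate 5 0.0911, without replicate 6 0.0643, without replicate 10 0.0624 and without replicate 11 0.0527. Over all genes, 1470 (without sham replicate 5) to 4938 (without RYGB replicate 11) were called in these 25 fits, against 2853 with all libraries. Prlr was higher in RYGB animals in each of these 25 fits, by a log2 fold change of 1.35 to 1.82. Its call was also lost without 13 libraries low in marker genes of the hypothalamus (log2 fold change 1.12, adjusted p 0.149, edgeR). The same held with the level of these markers as a further term in the model, and both fits are described below.

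RefSeq lists a pair of start sites for Prlr, and their promoters are shown because the sequence bound by STAT5 proteins, TTCNNNGAA, was searched in the promoters of these genes. The windows reach from 250 bases before to 50 bases after a start, are written in the direction of the gene on build GRCr8, not the Rnor_6.0 build of the counts, and have matches in capitals. The motif reads the same on both strands. Of the 33469 promoter windows of RefSeq genes, 8.87% hold at least 1 match. The upstream Prlr window holds none and the downstream window holds 1, TTCTAGGAA, which begins 176 bases before the start.

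Prlr chr2:60861515-60861814: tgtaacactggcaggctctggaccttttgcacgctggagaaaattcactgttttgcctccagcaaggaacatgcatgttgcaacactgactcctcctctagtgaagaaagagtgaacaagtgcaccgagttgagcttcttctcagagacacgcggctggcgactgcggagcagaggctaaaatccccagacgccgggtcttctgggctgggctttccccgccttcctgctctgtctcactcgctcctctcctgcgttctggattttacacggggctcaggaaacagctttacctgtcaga

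Prlr chr2:60909409-60909708: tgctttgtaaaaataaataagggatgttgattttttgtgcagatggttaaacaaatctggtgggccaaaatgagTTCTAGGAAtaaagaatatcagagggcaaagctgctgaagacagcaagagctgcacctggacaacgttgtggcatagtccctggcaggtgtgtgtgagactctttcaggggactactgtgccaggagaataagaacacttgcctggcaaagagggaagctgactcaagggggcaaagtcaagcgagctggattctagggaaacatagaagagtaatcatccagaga

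Ghr encodes the growth hormone receptor (gene5475, chromosome 2, 53149225 to 53413954, minus strand, Rnor_6.0). Its level was 3.62 CPM per kilobase of exon, and its counts ran from 179 to 1163 per library. In batch A it ran from 12.1 to 32.4 CPM in the RYGB libraries with a median of 21.8 CPM. The 5 sham libraries had 13.2, 18.5, 10.8, 20.8 and 13.05 CPM. The sham libraries had the lowest median of batch A, and 6 of 11 RYGB libraries lay above the highest of them. In batch B the 3 RYGB libraries had 21.2, 14.3 and 23.3 CPM and the sham libraries ran from 11.4 to 25.1 CPM with a median of 17.8 CPM, so the groups overlapped. The log2 fold change of RYGB against sham was 0.314 (SE 0.155, p 0.0472), and it missed the threshold with an adjusted p of 0.160. It was 0.532 within batch A (SE 0.198, adjusted p 0.0756, edgeR) and 0.163 within batch B (SE 0.252, adjusted p 0.758, edgeR). Medians in the remaining cells of group and batch ran from 14.04 CPM in PYY3-36 + liraglutide animals of batch B to 21.8 CPM in those of batch A. BWM replicate 7 had the highest level of all, at 34.2 CPM. The promoter window of Ghr holds no match of the STAT5 motif.

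Stat5a and Stat5b encode the transcription factors that both receptors activate. They are neighbours on chromosome 10 of Rnor_6.0, Stat5b at 88686207 to 88712313 on the minus strand (gene25034) and Stat5a at 88764732 to 88789060 on the plus strand (gene25035). Their sequences are close to identical over long stretches, reads with several places were counted as fractions, and 52.3% of the values of Stat5b and 50.8% of those of Stat5a were not whole. The distances of these values from the nearest whole number summed to 0.0379% and 0.0707% of the counts. This is what rounding changed and not the share of reads with several places. Neither that share nor reads placed on the wrong neighbour can be seen in such a table. Per kilobase of exon Stat5b was the most abundant of the 6 genes, with 9.73 CPM against 3.35 CPM for Stat5a.

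In batch A, Stat5b ran from 11.1 to 44.9 CPM in the 11 RYGB libraries with a median of 31.2 CPM. The 5 sham libraries had 24.6, 5.95, 17.03, 15.1 and 14.9 CPM. Of the RYGB libraries 8 of 11 lay above the highest sham library, and replicates 6, 7 and 11 lay within the sham range. In batch B the 3 RYGB libraries had 27.4, 31.3 and 27.0 CPM, and the 6 sham libraries ran from 9.44 to 21.3 CPM with a median of 10.9 CPM. In that batch 2.74% of all genes were called between RYGB and sham animals. Over both batches Stat5b was 1.97-fold higher in RYGB animals (log2 fold change 0.975, SE 0.195, adjusted p 0.00192) and held place 58 of 21871 genes by p. It was called within batch A (0.940, SE 0.254, adjusted p 0.0185, edgeR), where 8.64% of all genes were called, and within batch B (1.21, SE 0.309, adjusted p 0.0290, edgeR). The call was kept in 25 of 25 fits without 1 library, with log2 fold changes of 0.866 to 1.08.

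Sham animals held the lowest median of Stat5b in both batches. In batch A the medians of the other groups lay close together, at 26.3 CPM in BWM, 27.7 CPM in lean, 30.6 CPM in PYY3-36 + liraglutide, 30.7 CPM in saline and 31.2 CPM in RYGB animals, and their ranges overlapped. The saline libraries of batch B had 15.3, 17.03, 17.3, 14.6 and 10.6 CPM. The median was 22.4 CPM in liraglutide, 25.0 CPM in PYY3-36 + liraglutide and 26.0 CPM in PYY3-36 animals. Of the 14 libraries with a gut hormone in batch B, 4 of 5, 4 of 5 and 3 of 4 lay above the highest saline library of that batch, in the same order.

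Stat5a ran from 8.32 to 19.9 CPM in the RYGB libraries of batch A with a median of 13.99 CPM. The 5 sham libraries of that batch had 9.88, 4.16, 11.8, 11.5 and 9.99 CPM. For batch B, the 3 RYGB libraries had 15.2, 18.2 and 15.5 CPM and the sham libraries ran from 8.50 to 15.4 CPM with a median of 10.3 CPM. The RYGB libraries were above the highest sham library in 8 of 11 cases in batch A and 2 of 3 in batch B, and both groups overlapped in each batch. The log2 fold change was 0.463 (SE 0.151, adjusted p 0.0340, fold 1.38) over both batches. It was 0.535 within batch A (SE 0.192, adjusted p 0.0661, edgeR) and 0.580 within batch B (SE 0.241, adjusted p 0.143, edgeR). In 8 of 25 fits without 1 library the call was lost. The adjusted p was 0.0530 without RYGB replicate 3, 0.0513 without replicate 9, 0.0599 without replicate 12, 0.0829 without replicate 13 and 0.0607 without replicate 14. It was 0.0928 without sham replicate 2, where the log2 fold change was 0.358, 0.0645 without replicate 5 and 0.0518 without replicate 10. The promoter windows of Stat5a and Stat5b hold no match of the motif.

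Cish encodes a STAT5 target whose product binds the activated receptors and blocks the signal (gene21173, chromosome 8, 116054547 to 116059494, plus strand, Rnor_6.0). Its promoter window is shown because it holds 4 matches of the STAT5 motif, which begin 241, 230, 136 and 119 bases before the start and read TTCCTGGAA, TTCTTGGAA, TTCTAGGAA and TTCCGGGAA. Of all promoter windows 0.0239%, which are 8 of 33469, hold 3 or more matches. The match is a feature of the sequence alone, and binding was not measured.

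Cish chr8:116850719-116851018: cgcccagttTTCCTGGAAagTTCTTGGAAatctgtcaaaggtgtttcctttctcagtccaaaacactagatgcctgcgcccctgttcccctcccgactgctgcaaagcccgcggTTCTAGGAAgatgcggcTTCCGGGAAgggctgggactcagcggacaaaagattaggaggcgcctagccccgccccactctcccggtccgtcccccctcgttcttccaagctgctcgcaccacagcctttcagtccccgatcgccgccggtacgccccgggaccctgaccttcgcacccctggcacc

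The level of Cish was 1.32 CPM per kilobase of exon. In batch A the RYGB libraries ran from 0.958 to 8.39 CPM with a median of 2.40 CPM, and the 5 sham libraries had 1.89, 1.49, 13.2, 1.86 and 2.18 CPM. Sham replicate 3 was the highest of all 65 libraries, and the groups overlapped. The 3 RYGB libraries of batch B had 3.49, 2.10 and 2.71 CPM and the sham libraries ran from 1.45 to 3.75 CPM with a median of 2.43 CPM, again with overlap. The log2 fold change was -0.240 (SE 0.283, adjusted p 0.597), with -0.504 within batch A (SE 0.369) and 0.146 within batch B (SE 0.498). The sign rested on sham replicate 3, without which the log2 fold change over both batches was 0.367 (adjusted p 0.356).

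Socs2 encodes a suppressor of cytokine signalling known as a brake on growth hormone action (gene18016, chromosome 7, 36495496 to 36500878, minus strand, Rnor_6.0). Its level was 2.65 CPM per kilobase of exon. In batch A the RYGB libraries ran from 3.84 to 14.2 CPM with a median of 5.29 CPM, and the 5 sham libraries had 9.81, 11.7, 11.2, 5.64 and 6.69 CPM. Here the sham libraries had the highest median of the 6 groups, 6 of 11 RYGB libraries lay below the lowest sham library, and the groups overlapped. In batch B the 3 RYGB libraries had 5.57, 5.66 and 5.15 CPM and lay within the range of the sham libraries, which was 3.58 to 7.93 CPM with a median of 6.60 CPM. The log2 fold change was -0.309 (SE 0.206, adjusted p 0.315), with -0.510 within batch A (SE 0.259, adjusted p 0.205, edgeR) and -0.132 within batch B (SE 0.352, adjusted p 0.871, edgeR). Cish and Socs2 thus did not pass the test, while both STAT5 genes did. The median log2 fold change of the 6 genes was 0.388, against -0.0167 over all genes tested.

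**Figure D2:**
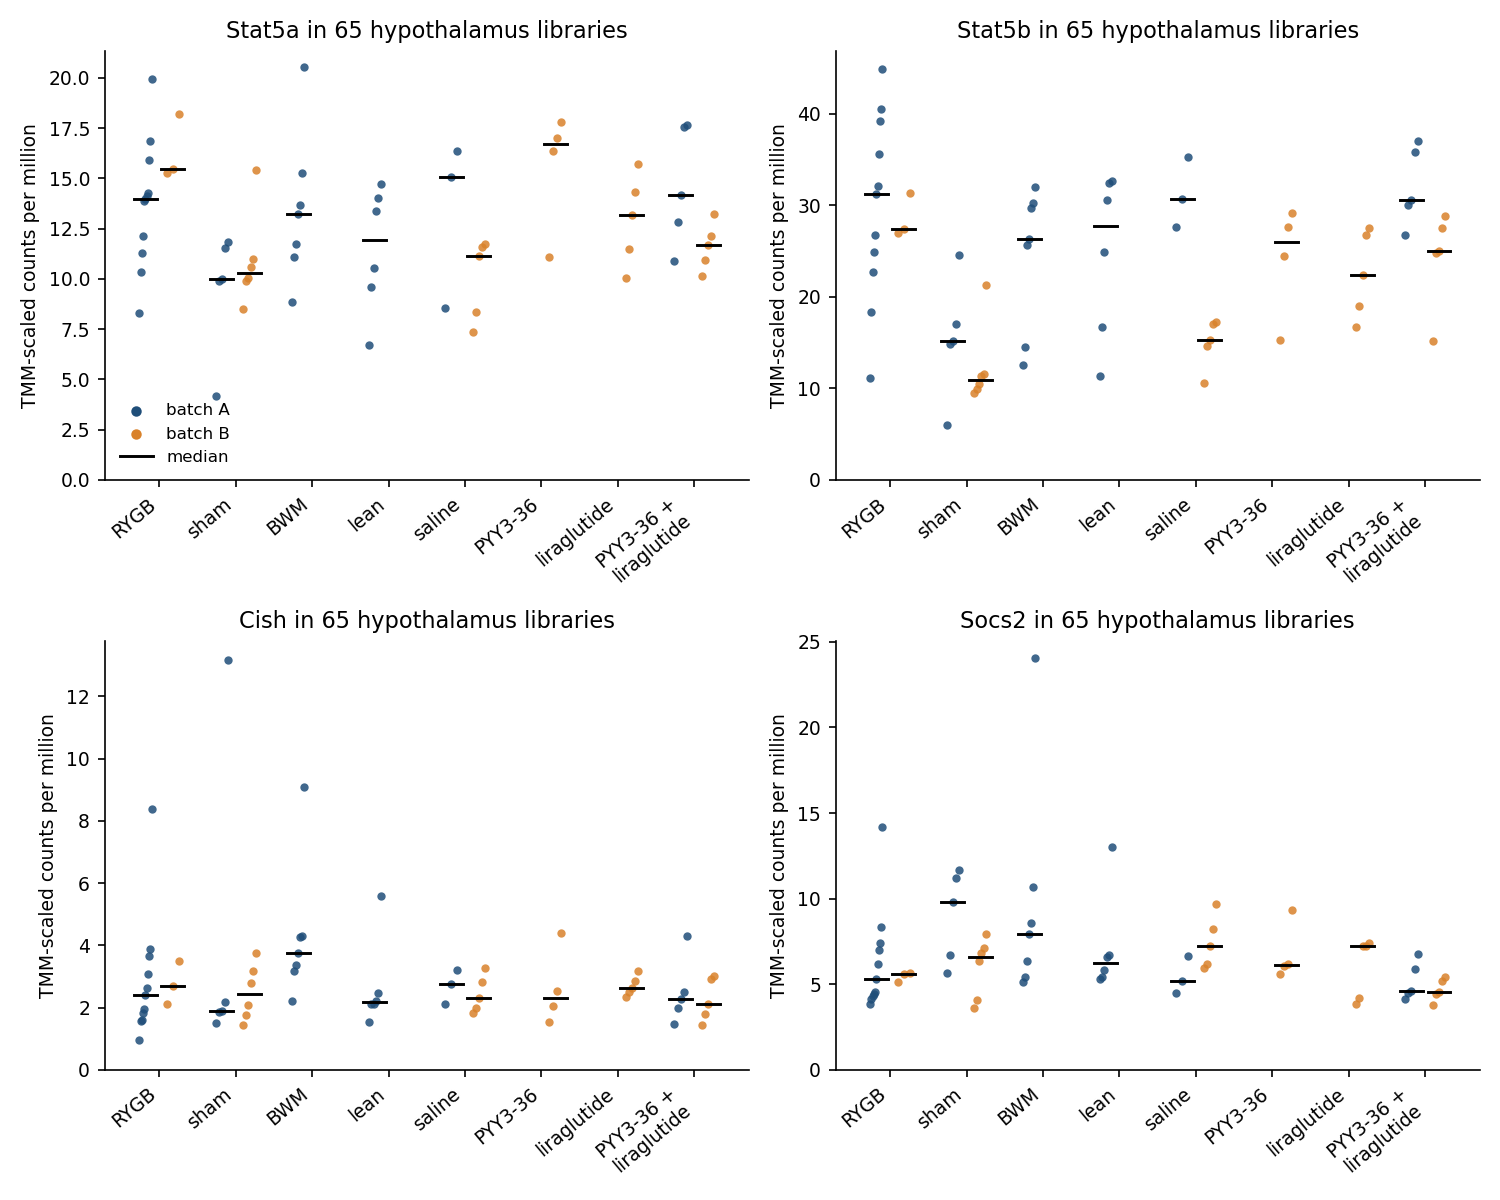
Levels of Stat5a, Stat5b, Cish and Socs2 (TMM-scaled CPM) in each of the 65 libraries, by group, with batch A in blue and batch B in orange and a bar at each median. The sham libraries had the lowest medians of Stat5b (15.1 CPM in batch A and 10.9 CPM in batch B), and single libraries stood high in Cish (13.2 CPM in a sham animal) and Socs2 (24.1 CPM in a BWM animal).

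BWM animals, whose weight was held down by less food without bypass, were compared with sham animals to see which differences follow food restriction. Of the 6 genes 0 were called by edgeR, against 0.320% of all genes (70 genes), and 0 by DESeq2, against 231 genes, and 1, Stat5b, had an unadjusted p under 0.05, as did 12.3% of all genes. Stat5b had a log2 fold change of 0.604 (SE 0.235, adjusted p 0.257), and 5 of 7 BWM libraries lay above the highest of the 5 sham libraries of batch A. Prlr had a log2 fold change of 0.677 (SE 0.598, adjusted p 0.691), and again 5 of 7 libraries lay above the highest sham library of the batch. Within batch A, where 5.28% of all genes were called, the log2 fold change of Prlr was 1.42 (SE 0.657, p 0.0347, adjusted p 0.210, edgeR). That of Stat5b was 0.655 (SE 0.268, p 0.0175, adjusted p 0.144, edgeR). Ghr differed there by 0.442 (SE 0.212, p 0.0412, adjusted p 0.230, edgeR) and Stat5a by 0.508 (SE 0.206, p 0.0166, adjusted p 0.140, edgeR). All 6 log2 fold changes were above 0, with a median of 0.343 against -0.000896 over all genes. The comparisons of RYGB, BWM and lean animals with sham animals share the sham libraries.

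Lean animals against sham animals gave 0 called genes of 6 by edgeR and by DESeq2, beside 0% of all genes by edgeR and 30 genes by DESeq2. Stat5b was the 1 gene with an unadjusted p under 0.05, beside 12.2% of all genes (log2 fold change 0.623, SE 0.244, adjusted p 0.309), and 4 of 6 lean libraries lay above the highest sham library of batch A. Prlr differed by 0.367 (SE 0.622) and Ghr by -0.00819 (SE 0.199), and within batch A by 1.11 (SE 0.669, adjusted p 0.428, edgeR) and 0.213 (SE 0.217, adjusted p 0.673, edgeR). RYGB animals against BWM animals also gave 0 called genes of 6 by both tools, against 0.343% of all genes by edgeR and 59 genes by DESeq2. Socs2 had an unadjusted p under 0.05, beside 12.6% of all genes (log2 fold change -0.629, SE 0.229, adjusted p 0.276), and 5 of 11 RYGB libraries lay below the lowest of the 7 BWM libraries. Prlr was 0.798 higher on the log2 scale (SE 0.523, adjusted p 0.513) and Stat5b 0.371 higher (SE 0.218, adjusted p 0.464), neither past the threshold.

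The gut hormone treatments were each compared with saline. PYY3-36 gave 0 called genes of 6 by edgeR and by DESeq2, against 0% of all genes by edgeR and 15 genes by DESeq2. Stat5a had an unadjusted p under 0.05, beside 7.54% of all genes (log2 fold change 0.484, SE 0.222, adjusted p 0.652), and its 4 libraries, at 17.8, 16.4, 17.02 and 11.1 CPM, stood beside 5 saline libraries of batch B at 7.37, 11.1, 11.6, 11.7 and 8.34 CPM. Only replicate 4 of the 4 PYY3-36 libraries lay within the range of these saline libraries. Liraglutide gave 0 called genes of 6 by both tools and 0 with an unadjusted p under 0.05 (2.08% of all genes). Of all genes 0% were called by edgeR, and 12 genes by DESeq2. Both groups lay in batch B alone, and for Prlr the sign depended on which saline animals were used. Against saline animals of both batches Prlr differed by -0.302 under PYY3-36 (SE 0.738) and by -0.110 under liraglutide (SE 0.688), and against those of batch B by 0.538 (SE 0.753, adjusted p 0.791, edgeR) and 0.731 (SE 0.713, adjusted p 1, edgeR). Stat5b differed by 0.413 under PYY3-36 (SE 0.287) and 0.311 under liraglutide (SE 0.270), and within batch B by 0.687 (SE 0.301, p 0.0265, adjusted p 0.472, edgeR) and 0.585 (SE 0.287, p 0.0458, adjusted p 1, edgeR).

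PYY3-36 + liraglutide gave 0 called genes of 6 by edgeR and by DESeq2, against 0.00457% of all genes by edgeR and 17 genes by DESeq2. Socs2 had an unadjusted p under 0.05, beside 2.53% of all genes (log2 fold change -0.483, SE 0.240, adjusted p 0.9998). In batch B the 5 treated libraries had 4.42, 3.78, 5.41, 4.52 and 5.21 CPM of Socs2. The 5 saline libraries of that batch had 5.93, 7.24, 8.22, 9.71 and 6.18 CPM. In batch A the treated libraries had 5.90, 4.11, 4.47, 6.75 and 4.60 CPM and the saline libraries 6.62, 5.17 and 4.50 CPM, which overlapped. The log2 fold change of Socs2 was -0.0725 within batch A (SE 0.359) and -0.676 within batch B (SE 0.314, adjusted p 0.834, edgeR), and the difference between both batches was -0.603 (SE 0.480, p 0.214). Stat5b differed by 0.0380 within batch A (SE 0.327) and by 0.698 within batch B (SE 0.287, p 0.0182, adjusted p 0.834, edgeR), and Prlr by -0.832 (SE 0.740) and by 0.992 (SE 0.709, adjusted p 0.851, edgeR), with a difference between both batches of 1.82 for Prlr (SE 1.02, p 0.0803). The 3 treatments share the saline libraries.

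The 2 groups of control animals were compared with each other, since the surgical groups have sham animals and the hormone groups saline animals as their control. Sham against saline gave 0 called genes of 6 by edgeR and by DESeq2, against 0.0137% of all genes by edgeR and 32 genes by DESeq2. Of the 6 genes 2 had an unadjusted p under 0.05, as did 12.9% of all genes. These were Prlr (log2 fold change -1.09, SE 0.540, adjusted p 0.384) and Stat5b (-0.596, SE 0.213, adjusted p 0.256). Within batch A, Prlr was 2.57 lower on the log2 scale in sham animals (SE 0.763, adjusted p 0.175, edgeR), and within batch B it was 0.250 higher (SE 0.697, adjusted p 0.933, edgeR). The difference between both batches, 2.82, had an SE of 1.04, a p of 0.00881 and an adjusted p of 0.287. Stat5b differed by -1.01 within batch A (SE 0.322, adjusted p 0.206, edgeR) and by -0.280 within batch B (SE 0.275, adjusted p 0.741, edgeR). RYGB against saline gave 0 called genes of 6 by both tools, against 0.00457% of all genes by edgeR and 12 genes by DESeq2. With an unadjusted p under 0.05 it gave 0 of 6 (2.08% of all genes). Its log2 fold change was 0.383 for Prlr (SE 0.494) and 0.378 for Stat5b (SE 0.210, adjusted p 0.9999), with opposite signs in the batches. Prlr differed by -0.309 within batch A (SE 0.656) and by 1.06 within batch B (SE 0.793), and Stat5b by -0.0678 (SE 0.290) and by 0.931 (SE 0.323, p 0.00558, adjusted p 0.421, edgeR). The difference between both batches was 0.999 for Stat5b (SE 0.431, p 0.0242, adjusted p 0.623). BWM against saline likewise gave 0 of 6 by both tools, against 0.0412% of all genes by edgeR and 22 genes by DESeq2. With an unadjusted p under 0.05 it gave 0 of 6 (6.47% of all genes). There Prlr differed by -0.415 (SE 0.586) and Stat5b by 0.00744 (SE 0.249), and within batch A, where all BWM animals lay, by -1.15 (SE 0.685, adjusted p 0.844, edgeR) and -0.353 (SE 0.304, adjusted p 0.849, edgeR).

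**Figure D3:**
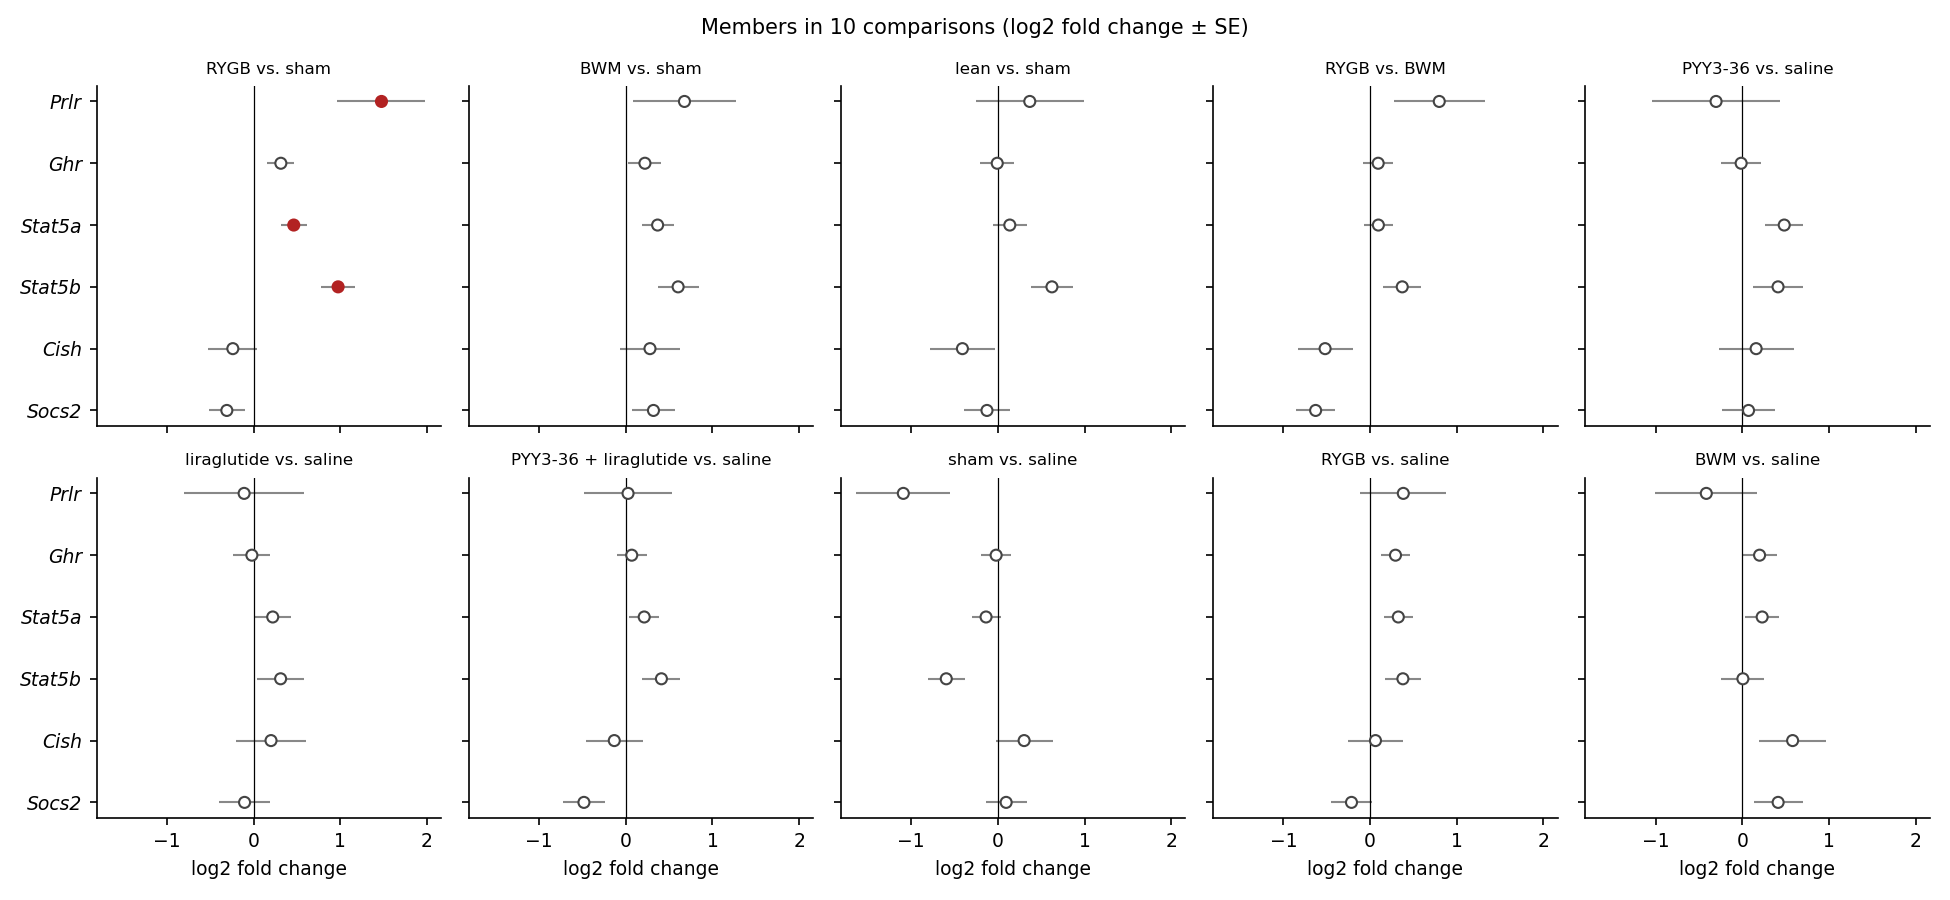
Log2 fold changes (points) with their SE (lines) of the 6 genes in 10 comparisons from the edgeR model with group and batch; filled points have an adjusted p under 0.05. The filled points are Prlr (1.475), Stat5a (0.463) and Stat5b (0.975) in RYGB against sham animals.

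Between the batches 40.7% of all genes were called, and 2 of the 6 genes were. Prlr was 1.05 lower on the log2 scale in batch B than in batch A (SE 0.381, adjusted p 0.0231), and Stat5b was 0.424 lower (SE 0.147, adjusted p 0.0169). For Prlr this was not alike in all groups, with medians in batch A and batch B of 0.462 and 0.434 CPM in sham and of 3.0015 and 0.508 CPM in saline animals. No interaction of batch with RYGB against sham, PYY3-36 + liraglutide against saline, sham against saline or RYGB against saline had an adjusted p under 0.05 in any of the 6 genes by edgeR. Over all genes 1 was called for sham against saline and 0 for each of the other comparisons. Of the 24 interactions of the 6 genes 3 had an unadjusted p under 0.05, and the share among all genes was not counted.

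The 6 genes were then related to each other in a family of 45 relations with permutation tests. Over all libraries the means of each group in each batch were removed first, while r within batch A or batch B was taken on the levels as they stand and includes differences between groups. Prlr and Stat5b rose and fell together (Pearson r 0.560, Spearman rho 0.607, adjusted p 0.000112 and 0.000150, 65 libraries), and each raw p was 1e-05, the smallest that the permutations can give. The r was 0.668 in batch A (rho 0.725, 37 libraries) and 0.576 in batch B (rho 0.620, 28 libraries), and 0.543 over all libraries without the 2 farthest from the median of Stat5b. Stat5a and Stat5b had an r of 0.597 (rho 0.559, adjusted p 0.000112 and 0.000180), 0.753 in batch A and 0.570 in batch B, and 0.518 without the 2 farthest libraries. Prlr and Ghr had an r of 0.351 (rho 0.328, adjusted p 0.0403 and 0.0413), 0.461 in batch A and 0.376 in batch B, and 0.403 without the 2 farthest libraries. Cish and Socs2 had an r of 0.518 (rho 0.330, adjusted p 0.00172 and 0.0413), with 0.667 in batch A and -0.0247 in batch B. Without the 2 farthest libraries it was 0.347 over all libraries and 0.504 in batch A. Prlr and Stat5a had an r of 0.264 (adjusted p 0.0975), which did not pass. It was 0.438 in batch A (rho 0.476, adjusted p 0.0254 and 0.0157), which passed, and 0.311 in batch B. Over all libraries Ghr had an r of 0.354 with Stat5a and of 0.364 with Stat5b (adjusted p 0.0274 for each r). Between Prlr and Cish the r was 0.0164 (rho -0.0170) and between Prlr and Socs2 -0.0810 (rho -0.213). Without the 2 farthest libraries Prlr and Socs2 had an r of -0.244, and it was -0.228 in batch A (-0.491 without the 2 farthest) and -0.396 in batch B (permutation p 0.0377, adjusted p 0.0942).

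Ttr, the transthyretin gene that the choroid plexus expresses strongly, served as the check on choroid plexus tissue in the dissection. It ran from 3.13 to 3518 CPM over the 65 libraries with a median of 34.5 CPM, and it was highest in RYGB replicate 6 (3518 CPM), BWM replicate 2 (2048 CPM) and BWM replicate 3 (828 CPM). Prlr in these libraries was 2.76, 0.763 and 1.95 CPM, within the range of their groups. Over all libraries with the means of groups and batches removed, Prlr and Ttr had an r of 0.0392 (rho 0.00262, permutation p 0.779 and 0.985, adjusted p 0.779 and 0.985 over 18 relations). On levels with group means kept, the r was -0.227 in batch A (rho -0.300, permutation p 0.177 and 0.0726, adjusted p 0.266 and 0.187), and batch B gave 0.264 (rho 0.250, permutation p 0.176 and 0.199, adjusted p 0.266 and 0.325). Without the 2 libraries farthest from the median of Ttr it was 0.0443, -0.334 and 0.350, in the same order. With Ttr as a further term in the model, the log2 fold change of Prlr between RYGB and sham animals was 1.48 (adjusted p 0.0436).

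Among the 18 relations to Ttr, 2 had an adjusted p under 0.05 by Pearson r, both in batch A. Stat5b fell with Ttr (r -0.489, rho -0.462, permutation p 0.00272 and 0.00419, adjusted p 0.0245 and 0.0377), and Socs2 rose with it (r 0.503, rho 0.642, permutation p 0.00235 and 3e-05, adjusted p 0.0245 and 0.000540). In batch B the r was 0.149 and 0.202. Without the 2 libraries farthest from the median of Ttr the r in batch A was -0.438 for Stat5b and 0.435 for Socs2. Of the 18 relations 0 then passed the threshold by Pearson r in permutation tests, and rho was not counted there.

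**Figure D4:**
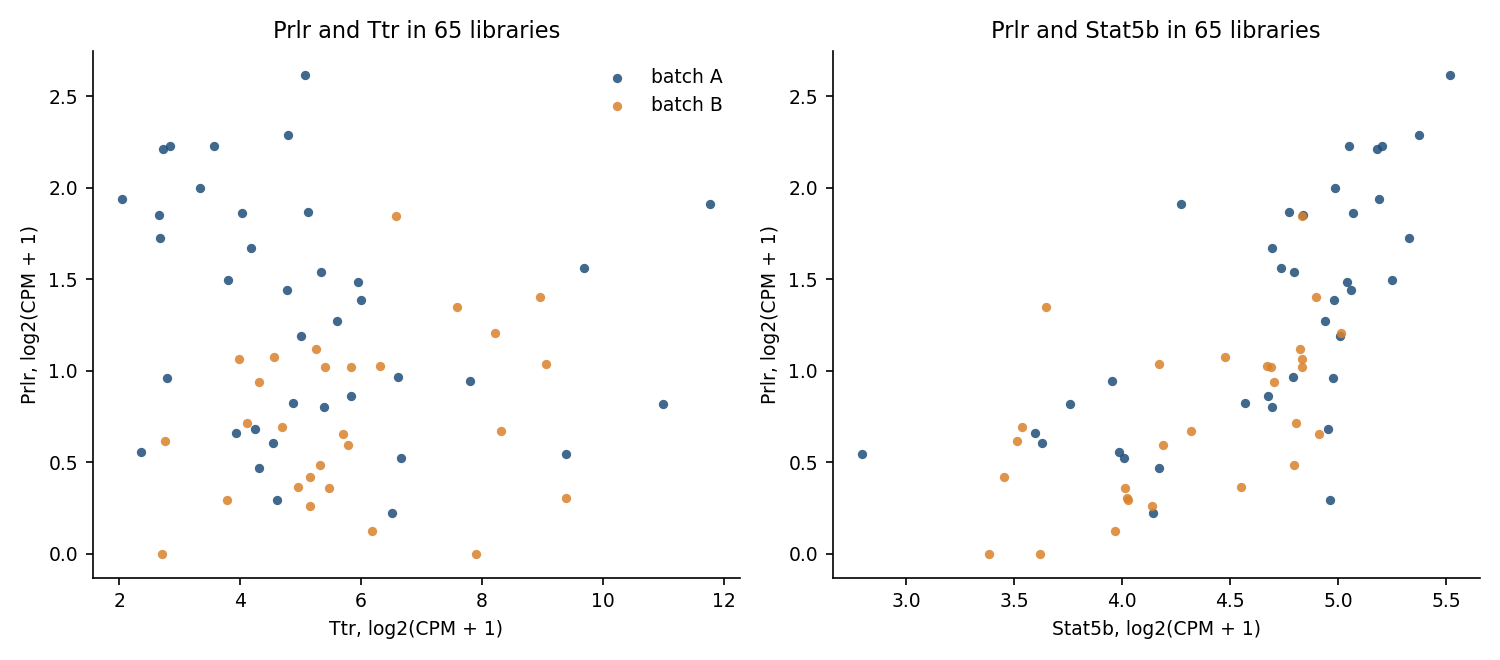
Prlr against Ttr (left) and against Stat5b (right) in 65 libraries as log2(TMM-scaled CPM + 1), with batch A in blue and batch B in orange. Libraries above the median of Ttr (34.5 CPM) reached at most 2.76 CPM of Prlr and those below it up to 5.14 CPM (r 0.0392 with group and batch means removed), and it is higher where Stat5b is higher (r 0.560).

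The genes whose levels followed Prlr most closely over the 65 libraries, with group and batch means removed, were Gabrb1 (r 0.755), Sgsm1 (0.751), Peg10 (0.744), LOC100911639 (0.744), Lrig2 (0.731), Tub (0.729), Wdr35 (0.728) and Usp34 (0.727). Gabrb1 encodes a subunit of the GABA-A receptor, and Peg10 is an imprinted gene derived from a retrotransposon. An r over 0.5 with Prlr was found for 821 of 21870 other genes, Stat5b held place 390, Ghr place 2895 and Ttr place 9874. Ghr was followed most closely by Gpc3 (r 0.702), Tead1 (0.698), Dcdc2 (0.685), Slc12a7 (0.677), Cdc14a (0.665), Txndc5 (0.663), Nmur2 (0.663) and Fndc3b (0.661), and 324 genes had an r over 0.5. Socs3, an inhibitor of cytokine receptors, held place 107 beside Ghr (r 0.565) and Lepr, the leptin receptor, place 455 (r 0.478). These likenesses are a description over animals that share groups and batches, without a test.

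Of the other genes of the pathway, 70 were on lists made by symbol from general knowledge, and 69 passed the filter on low counts, all but Ghrhr. Those described here as called between RYGB and sham animals were each higher in RYGB animals. Of 8 related cytokine receptors 3 were called, beside 13% of all genes (6.52% higher), with a median log2 fold change of 0.347 over the list. These were Lepr (log2 fold change 1.39, SE 0.373, adjusted p 0.0115), Lifr, a receptor for leukaemia inhibitory factor (1.16, SE 0.288, adjusted p 0.00700), and Il6st, the shared subunit gp130 (0.305, SE 0.0987, adjusted p 0.0332). Lepr ran from 3.52 to 27.6 CPM in the RYGB libraries of batch A and from 1.62 to 4.53 CPM in the sham libraries, and 9 of 11 RYGB libraries lay above the highest sham library. Ranges in batch B were 3.31 to 6.26 CPM and 0.881 to 3.99 CPM, and 1 of 3 lay above.

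Beside the same 13% of all genes, 1 of 12 kinases and adaptors was called, Irs1, an adaptor of insulin and growth hormone receptors (log2 fold change 1.11, SE 0.230, adjusted p 0.00203), and the list had a median of -0.00950. Irs1 ran from 2.36 to 8.41 CPM in RYGB and 2.69 to 5.73 CPM in sham libraries of batch A, and from 3.31 to 6.52 CPM and 0.776 to 2.30 CPM in batch B. Jak2, the kinase of both receptors, had a log2 fold change of 0.265 (SE 0.110, adjusted p 0.0917). Of 5 other STAT proteins 2 were called, beside the same 13% of all genes, with a median of 0.275 over the list. Stat3, the main STAT of leptin signalling, was 1 of them (0.461, SE 0.148, adjusted p 0.0313). Of 15 other inhibitors 2 were called, also beside 13% of all genes, Pias1, which restrains activated STAT proteins (1.03, SE 0.180, adjusted p 0.000654), and Socs4 (0.784, SE 0.231, adjusted p 0.0201), with a median of 0.101. Pias1 ran from 7.37 to 27.9 CPM in RYGB and 6.12 to 17.7 CPM in sham libraries of batch A, and from 15.9 to 20.6 CPM and 4.56 to 10.5 CPM in batch B. Socs1 and Socs3, both inhibitors of JAK kinases, differed by 0.0298 (SE 0.190) and 0.0375 (SE 0.312).

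Of 12 targets of STAT5 and growth hormone 1 was called, against 13% of all genes, Igf1r, the receptor for insulin-like growth factor 1 (log2 fold change 0.320, SE 0.0986, adjusted p 0.0258), with a median of 0.298 over the list. Igf1 itself differed by 0.285 between RYGB and sham animals (SE 0.256, adjusted p 0.473) and by 1.13 between BWM and sham animals (SE 0.308, adjusted p 0.0774). Of 15 tested genes for the hypothalamic control of both hormones 3 were called, against the same 13%, with a median of 0.354. Sstr1, a receptor for somatostatin, differed by 0.711 (SE 0.221, adjusted p 0.0268). Th, the rate-limiting enzyme of dopamine synthesis, differed by 2.12 (SE 0.722, adjusted p 0.0425), and Slc6a3, the dopamine transporter, by 7.26 (SE 1.58, adjusted p 0.00300). Slc6a3 was 0 to 0.140 CPM in the 5 sham libraries of batch A and 0 to 0.707 CPM in the 6 of batch B. The 11 RYGB libraries of batch A ran from 0.179 to 136 CPM with a median of 1.02 CPM, and those of batch B had 28.5, 93.1 and 0.902 CPM. RYGB replicates 2, 7, 12 and 13 stood apart from the other RYGB libraries at over 20 CPM. The same 4 libraries held the highest levels of Th among RYGB animals, from 105 to 283 CPM, against 0.713 to 33.5 CPM in the 11 sham libraries.

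Left out in turn, single libraries changed some of these calls. Irs1, Pias1, Lepr, Lifr and Slc6a3 kept their call in 25 of 25 fits. Without sham replicate 5 the calls of Igf1r (adjusted p 0.0567), Socs4 (0.0552) and Sstr1 (0.0597) were lost, and these kept theirs in the other 24 fits. Of the 25 fits, the fit without sham replicate 5 also had the fewest calls over all genes, 1470. Stat3 was lost in 7 fits, without RYGB replicates 9 (adjusted p 0.0573), 12 (0.0644), 13 (0.0540) and 14 (0.0638) and sham replicates 2 (0.0696), 4 (0.0578) and 5 (0.0702). Il6st was lost in 10 fits, without RYGB replicates 3 (0.0532), 9 (0.0598), 12 (0.0645), 13 (0.0565) and 14 (0.0786) and sham replicates 1 (0.0514), 2 (0.0744), 3 (0.0635), 4 (0.0507) and 5 (0.0661). Th was lost in 13 fits, without RYGB replicates 2 (0.0594), 7 (0.0718), 12 (0.0710), 13 (0.124) and 14 (0.0511) and sham replicates 1 (0.0545), 2 (0.0741), 3 (0.0564), 4 (0.0552), 5 (0.0750), 6 (0.0648), 10 (0.0642) and 11 (0.0510).

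In the remaining comparisons of a treatment with its control, where 0% to 0.320% of all genes were called, 2 of the 69 genes were called, Prl (log2 fold change 10.4, SE 1.76, adjusted p 0.00135) and Gh1 (10.6, SE 1.85, adjusted p 0.00138), both higher in BWM than in sham animals. They encode the hormones prolactin and growth hormone, which the anterior pituitary makes. Prl was at 12887 CPM in BWM replicate 5, at 104 CPM in BWM replicate 7, at 2.92 CPM or less in the other 5 BWM libraries, and at 0 in 42 of 65 libraries. Gh1 was at 62724 CPM in BWM replicate 5 and 492 CPM in BWM replicate 7, and at 0 in 24 libraries. Without BWM replicate 5 neither was called, with log2 fold changes of 3.85 for Prl (adjusted p 0.303) and 3.94 for Gh1 (adjusted p 0.300), and both kept their call in the other 17 of 18 fits. Without RYGB replicate 6 and BWM replicates 2, 5 and 7 the sign turned, to -0.606 for Prl (adjusted p 0.970) and -1.58 for Gh1 (adjusted p 0.914). Both were also called higher in BWM than in RYGB animals and than in saline animals. PYY3-36 replicate 3 had 86.5 CPM of Prl and 317 CPM of Gh1, and sham replicate 3 had 10.9 and 47.7 CPM.

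Marker genes of the tissues around the hypothalamus were summed in each library. In bulk tissue, fewer cells of a type and less RNA per cell cannot be told apart. Of 20 choroid plexus genes 2 were called between RYGB and sham animals, both higher, where 13% of all genes were called and 6.52% were higher, and the median log2 fold change of the list was 1.09. The sum ran from 116 to 3888 CPM in RYGB and from 128 to 780 CPM in sham libraries of batch A, and from 167 to 498 CPM and 124 to 360 CPM in batch B. Over all libraries it ran from 96.0 to 3888 CPM, Igfbp2 was its most abundant gene, 14 of 20 genes had a median over 1 CPM, and no gene was at 0 in every library. In the other groups the sum was 198 to 2550 CPM in BWM, 143 to 410 CPM in lean, 96.0 to 257 CPM in saline and 242 to 439 CPM in PYY3-36 + liraglutide libraries of batch A. In batch B it was 131 to 911 CPM in saline, 313 to 959 CPM in PYY3-36, 152 to 501 CPM in liraglutide and 129 to 655 CPM in PYY3-36 + liraglutide libraries.

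Of 14 tested anterior pituitary genes 0 were called between RYGB and sham animals by edgeR (13% of all genes), with a median of 0.595, and 5 were called higher in BWM than in sham animals (0.320% of all genes called). The sum ran from 25.9 to 651 CPM in RYGB, 13.7 to 567 CPM in sham, 14.7 to 78827 CPM in BWM, 7.94 to 441 CPM in lean, 71.7 to 686 CPM in saline and 90.1 to 228 CPM in PYY3-36 + liraglutide libraries of batch A. In batch B it ran from 152 to 672 CPM in RYGB, 20.1 to 139 CPM in sham, 11.6 to 80.7 CPM in saline, 21.9 to 597 CPM in PYY3-36, 34.0 to 437 CPM in liraglutide and 44.0 to 100 CPM in PYY3-36 + liraglutide libraries. BWM replicate 5 was the library far above all others. Dlk1 was the most abundant gene by its median, and 3 of 15 genes on this list, Prl, Gh1 and Ghrhr, stand on other lists as well.

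Of 16 entries for 15 genes of the meninges 0 were called between RYGB and sham animals (13% of all genes), with a median of 1.16 and 16 of 16 above 0. The sum was 158 to 4218 CPM in RYGB, 99.7 to 162 CPM in sham, 132 to 4111 CPM in BWM, 152 to 1476 CPM in lean, 139 to 992 CPM in saline and 439 to 2372 CPM in PYY3-36 + liraglutide libraries of batch A. In batch B it was 219 to 256 CPM in RYGB, 175 to 1346 CPM in sham, 219 to 1064 CPM in saline, 384 to 1284 CPM in PYY3-36, 185 to 1948 CPM in liraglutide and 137 to 321 CPM in PYY3-36 + liraglutide libraries. Igf2 was the most abundant. The sham libraries of batch A were low in these genes, and so were saline replicates 2 and 3 of that batch (147 and 139 CPM). These saline libraries had 3.64 and 2.61 CPM of Prlr and 35.3 and 27.6 CPM of Stat5b. BWM replicate 1 (132 CPM), lean replicate 5 (152 CPM) and RYGB replicate 5 (158 CPM) were low as well. They had 0.227, 0.746 and 2.83 CPM of Prlr and 30.2, 24.9 and 35.5 CPM of Stat5b, in the same order. In a fit with scores of choroid plexus, pituitary and meninges genes as further terms, Prlr lost its call between RYGB and sham animals. Stat5b kept its call there. The part of the meninges alone in the differences of Prlr and Stat5b was not tested.

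Of 20 genes that mark the hypothalamus 0 were called between RYGB and sham animals (13% of all genes), with a median of 0.225. The sum of these genes ran from 948 to 7512 CPM in RYGB, 275 to 4573 CPM in sham, 441 to 5002 CPM in BWM, 300 to 2838 CPM in lean, 339 to 2509 CPM in saline and 2016 to 4870 CPM in PYY3-36 + liraglutide libraries of batch A. In batch B it ran from 2253 to 3297 CPM in RYGB, 384 to 7295 CPM in sham, 376 to 6211 CPM in saline, 147 to 3123 CPM in PYY3-36, 333 to 6015 CPM in liraglutide and 307 to 8684 CPM in PYY3-36 + liraglutide libraries. Pmch, the gene of melanin-concentrating hormone, was the most abundant, and 5 of 20 genes stand on other lists as well. In 13 of 65 libraries the sum was under 600 CPM, with the highest of them at 595 CPM and the next library at 921 CPM. These were sham replicates 1, 2, 6 and 10, which are 4 of 11 sham animals, and 0 of 14 RYGB animals, 1 of 7 BWM, 2 of 6 lean, 2 of 8 saline, 1 of 4 PYY3-36, 2 of 5 liraglutide and 1 of 10 PYY3-36 + liraglutide animals. Both sham libraries without a count of Prlr, replicates 6 and 10, were among them and had 3374 and 3802 CPM of summed striatum genes. Sham replicate 2 had 2035 CPM of cortex genes and sham replicate 1 had 1218 CPM of thalamus and habenula genes. The medians over all libraries were 301, 111 and 248 CPM. Other groups held high sums as well, with 4448 CPM of striatum genes in BWM replicate 1 and 1276 CPM of cortex genes in RYGB replicate 6. The part of these regions in the differences was not tested.

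The median sum was lower in RYGB than in sham libraries of batch A (2358 against 3830 CPM) and higher in those of batch B (3241 against 2425 CPM), 15 of 20 genes had log2 fold changes above 0, and a difference in hypothalamic content was not tested beyond the single genes. The cut at 600 CPM was chosen after the values were seen, and the comparison of RYGB and sham animals was repeated with it. Without the 13 libraries Stat5b was called (log2 fold change 0.912, adjusted p 0.00577), and Prlr (1.12, adjusted p 0.149) and Stat5a (0.283, adjusted p 0.211) were not. With the mean log2 level of the hypothalamus genes as a further term Stat5b was called (0.877, adjusted p 0.00234), and Prlr (1.23, adjusted p 0.0671) and Stat5a (0.339, adjusted p 0.0708) were not. Without the 4 libraries with over 1000 CPM of Ttr or of summed pituitary genes (RYGB replicate 6 and BWM replicates 2, 5 and 7), Prlr (1.47, adjusted p 0.0421), Stat5a (0.506, adjusted p 0.0129) and Stat5b (1.02, adjusted p 0.000725) were called. Of the other pathway genes, Lepr (log2 fold change 1.17, adjusted p 0.0635), Stat3 (0.296, 0.224), Il6st (0.254, 0.140), Sstr1 (0.443, 0.119) and Th (1.54, 0.115) lost their call in the smaller fit without the 13 libraries, and Stat3 (0.296, 0.0731) and Il6st (0.229, 0.0873) lost it with the further term. Irs1, Pias1, Socs4, Lifr, Igf1r and Slc6a3 kept theirs in both fits.

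**Figure D5:**
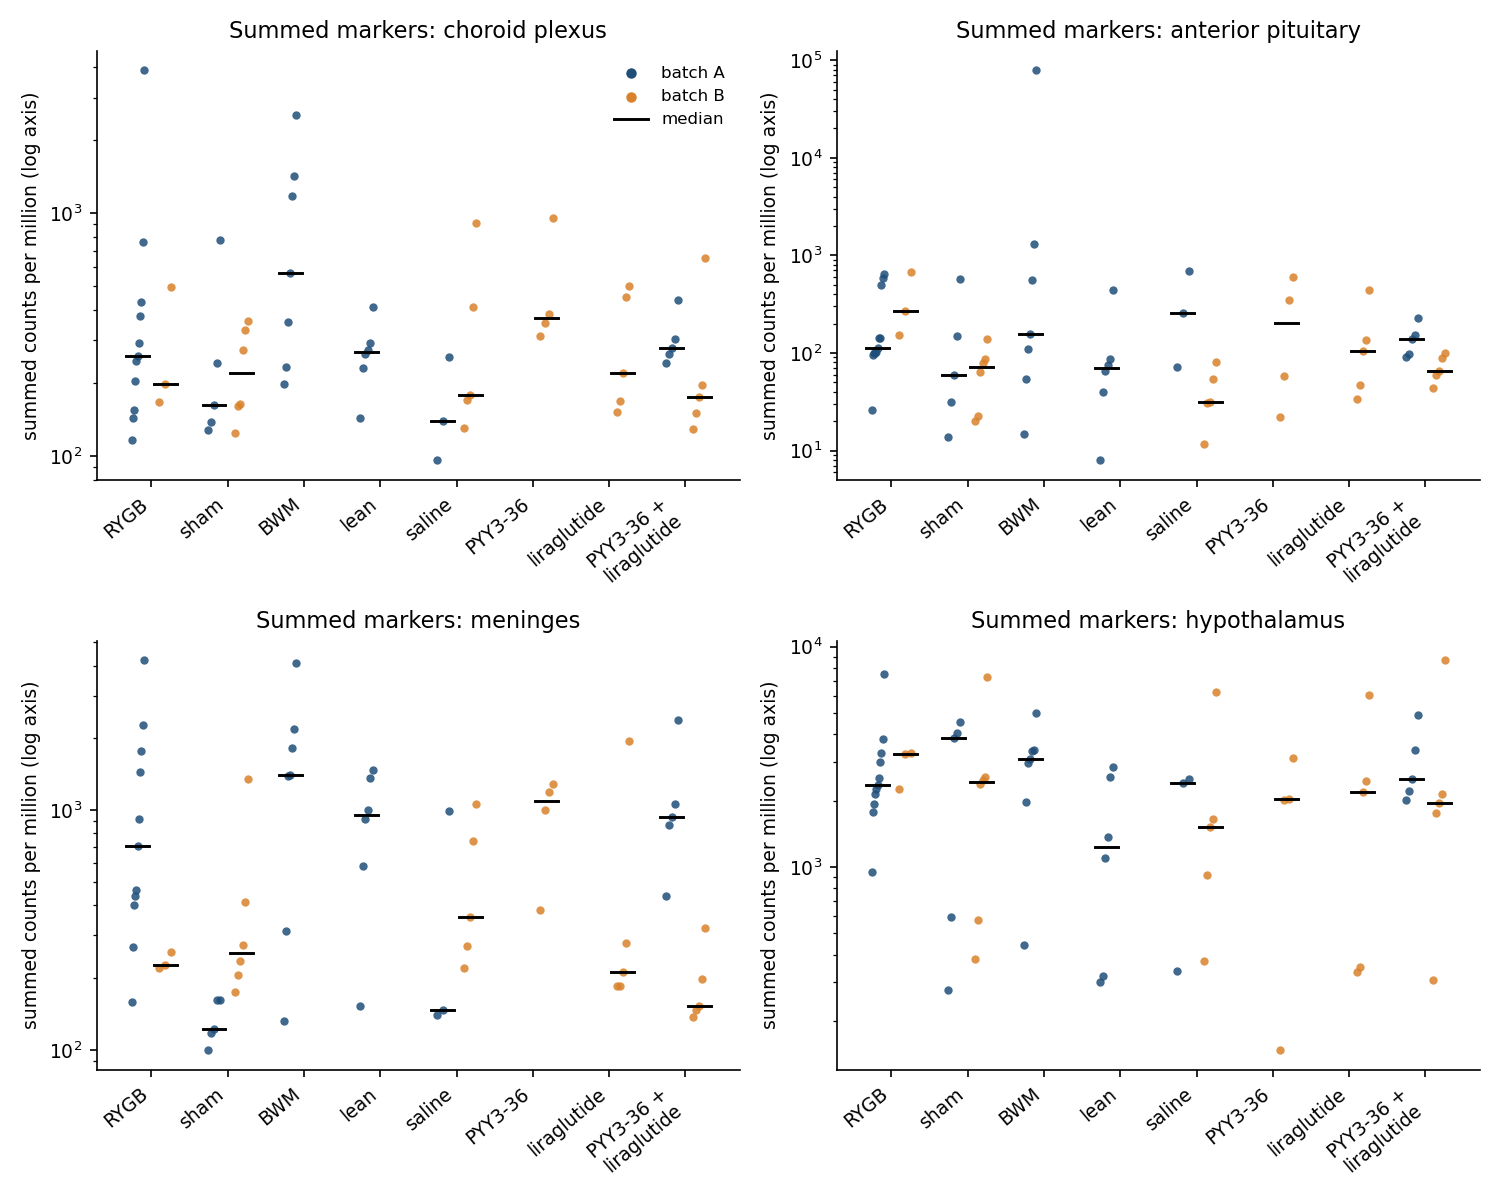
Summed levels of marker genes of the choroid plexus, anterior pituitary, meninges and hypothalamus (TMM-scaled CPM, log axis) in each of 65 libraries, by group, with batch A in blue and batch B in orange and a bar at each median. BWM replicate 5 stands at 78827 CPM of pituitary genes, and 13 libraries, 4 of them from sham animals, lie under 600 CPM of hypothalamus genes.

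Other cell types and neighbouring regions were looked at in the same way between RYGB and sham animals by edgeR, with sums over all 65 libraries, and each call was higher in RYGB animals, beside 13% of all genes called and 6.52% called higher. Among cell types, 1 of 10 astrocyte genes was called (median log2 fold change 0.245, sum 3264 to 7326 CPM, Aldoc most abundant), 1 of 10 microglia genes was called (median log2 fold change -0.0652, sum 232 to 577 CPM, Csf1r most abundant) and 1 of 8 endothelial genes was called (median log2 fold change 0.231, sum 218 to 634 CPM, Cldn5 most abundant). Of the others, 0 of 10 oligodendrocyte genes were called (median log2 fold change -0.292, sum 8072 to 60718 CPM, Mbp most abundant), 0 of 10 neuronal genes were called (median log2 fold change -0.174, sum 2953 to 9731 CPM, Snap25 most abundant), 0 of 10 ependyma and tanycyte genes were called (median log2 fold change -0.112, sum 116 to 662 CPM, Crym most abundant) and 0 of 6 blood genes were called (median log2 fold change 0.706, sum 4.65 to 579 CPM, Hba1 most abundant). Among regions, 1 of 8 cortex genes was called (median log2 fold change -0.341, sum 44.4 to 2035 CPM, Lamp5 most abundant), 0 of 8 striatum genes were called (median log2 fold change -1.25, sum 127 to 4448 CPM, Ppp1r1b most abundant) and 0 of 7 thalamus and habenula genes were called (median log2 fold change -0.875, sum 56.3 to 1218 CPM, Calb2 most abundant). All 8 striatum genes and all 10 oligodendrocyte genes had log2 fold changes under 0, and all 10 astrocyte genes had log2 fold changes above 0. A median over 1 CPM was found for 3 of 6 blood, 5 of 8 thalamus and habenula and 7 of 8 cortex genes, and for all striatum, astrocyte, microglia, neuronal and oligodendrocyte genes.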

How the data were processed

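The authors made stranded, poly-A selected, single-end libraries, 1 per animal. Per the labels they used bcl2fastq 2.20.0.422, cutadapt 1.16, STAR 2.7.2b on Rnor_6.0 and featureCounts 1.6.4. The deposited values are estimated counts, since the authors counted reads with several places as fractions, and 30.3% of values above 0 were not whole. They were rounded for the tests.

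Genes with few counts were removed with filterByExpr of edgeR (minimum count 10, minimum total 15). TMM scaling and robust quasi-likelihood tests with group and batch followed, with Benjamini-Hochberg adjustment over all genes tested, and within-batch differences came from a model of the 12 cells of group and batch. SE is the absolute log2 fold change divided by the square root of F. Relations used log2(CPM + 1) and 100000 permutations.

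The members and lists were chosen with earlier results of these data known, and lists came from general knowledge. Named were all 6 members, each pathway gene that passed a test and is not withheld, Prl, Gh1, Jak2, Lepr, Igf1, Socs1 and Socs3 in any case, and the 8 genes most like Prlr and Ghr. The fits on hypothalamic, choroid plexus and pituitary content of libraries were added after the values were seen. Promoters came from a table of RefSeq promoters, in which 5 of the 6 genes had an entry and Socs2 had none.

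The code ran on R 4.3.3 with edgeR 4.0.16, DESeq2 1.42.0 and limma 3.58.1, and on Python 3.11.15 with numpy 2.4.6, pandas 2.3.3, scipy 1.17.1 and matplotlib 3.10.9, and was tested on simulated data.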

Additional observations from a re-analysis of the deposited data

Results flagged for a closer look

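A library was picked out where its level stood far from the rest of its group, with the animals of both batches pooled. This was done for the 6 genes and Ttr in the 6 groups of up to 10 animals, and not in the larger RYGB and sham groups. Of these 42 groups of values 13 held such a library. The rule picks out about 1 in 20 groups by chance only where values are normally distributed and from 1 population. These values were CPM without logarithm and from pooled batches, so the 13 cannot be set against that rate. None of these gaps was tested.

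Prlr was at 2.601 CPM in liraglutide replicate 5 (next 0.5933 CPM) and at 3.684 CPM in PYY3-36 + liraglutide replicate 3 (next 1.819 CPM). Ghr was at 34.2 CPM in BWM replicate 7 (next 22.07 CPM). Cish and Socs2 stood out in the same libraries, with 9.082 CPM of Cish (next 4.306 CPM) and 24.05 CPM of Socs2 (next 10.7 CPM) in BWM replicate 5, and 5.588 CPM of Cish (next 2.456 CPM) and 12.99 CPM of Socs2 (next 6.716 CPM) in lean replicate 2. BWM replicate 5 also had 78827 CPM of summed pituitary genes. In RYGB animals Cish (8.39 CPM) and Socs2 (14.2 CPM) were highest in replicate 6, which had 3518 CPM of Ttr. Socs2 was also at 9.345 CPM in PYY3-36 replicate 2 (next 6.152 CPM).

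Ttr was at 2048 CPM in BWM replicate 2 (next 827.9 CPM), 530.1 CPM in saline replicate 5 (next 71.4 CPM), 667.9 CPM in PYY3-36 replicate 2 (next 78.15 CPM), 316.2 CPM in liraglutide replicate 4 (next 94.97 CPM) and 495.2 CPM in PYY3-36 + liraglutide replicate 7 (next 96.32 CPM).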

How the results depend on the processing

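The BWM and lean groups lie in batch A alone and the single hormone groups in batch B alone. Their differences from control animals of both batches thus rest on the batch term, while those within a batch do not. Bulk tissue does not show which cells hold a transcript, RNA was measured and not protein or phosphorylation, and marker sums of neighbouring tissue varied between animals.

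Between RYGB and sham animals the count of called members was 1 to 4 over 12 alternatives, with 3 in 5 of them, 2 in 2 (no filter and tissue scores) and 4 in 1 (no batch term). The tissue scores are mean log2 levels of the choroid plexus, anterior pituitary and meninges genes, used together as further terms. The count was 1 with a fold threshold (Prlr), 1 without libraries of few hypothalamus markers and 1 with the hypothalamus score (Stat5b in both). Without a batch term the count was 1 for BWM and 1 for lean against sham animals, Stat5b in both. The other comparisons kept 0 in 12 of 12. Prlr was 1.49 without a filter (adjusted p 0.0608), 1.39 with tissue scores (0.0667), 1.12 without libraries of few hypothalamus markers (0.149) and 1.23 with the hypothalamus score (0.0671), all above 0, and the cause was not tested. Of 18 relations to Ttr 0 were called by Pearson r without the 2 farthest libraries. Leaving out 1 library gave 1 to 3 called members between RYGB and sham animals, beside 1470 to 4938 of all genes. Prlr then had a log2 fold change of 1.35 to 1.82, and all other comparisons gave 0 called members.

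With the replicate number as a replicate block, 1 member was called between RYGB and sham animals (Stat5b), and Prlr had a log2 fold change of 1.53 (adjusted p 0.116). Of 11 pairs of RYGB and sham libraries with the same number, 4 had an r over 0.1 (lowest -0.398, highest 0.339). Whether such libraries share more than a number was not tested.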

Other observations

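Slc6a3 and Th stood high in single libraries of several groups, not of RYGB alone. Slc6a3 was at 146 CPM in PYY3-36 replicate 3, 105.8 CPM in PYY3-36 + liraglutide replicate 4, 83.9 CPM in PYY3-36 replicate 1, 69.3 CPM in BWM replicate 4, 45.6 CPM in BWM replicate 3, 33.4 CPM in PYY3-36 + liraglutide replicate 5, 30.2 CPM in liraglutide replicate 1 and 23.2 CPM in BWM replicate 5. Th in these libraries was at 312, 236, 196, 142, 143, 124, 55.9 and 65.5 CPM, in the same order.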
